A study of Brassica napus with 48 samples.

Results

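A9 (AT5G07230) was followed through the flower buds of oilseed rape (Brassica napus) on Affymetrix Arabidopsis ATH1 arrays. It was chosen as a tapetum marker and was read from its single probe set, so that it made up 1 of the 13350 genes that a probe set named alone. Per the labels, 2 lines with dominant genic male sterility were compared. Sterile J10 plants were MsMsrfrf and fertile J10 plants MsMsRfrf, so both carried 2 Ms alleles and differed at Rf. Sterile J03 plants were Msmsrfrf and fertile J03 plants msmsrfrf, so both lacked the dominant Rf allele and differed at Ms. Buds were small (under 1 mm), middle (1 to 3 mm) or large (over 3 mm), and the series' design text assigns these sizes to the tetrad, uninucleate and trinucleate stages of pollen development. The 12 groups of line, fertility and size held 48 arrays, 4 in each, read as 2 replicates with 2 hybridisations each. Whole buds with stamens and pistils were pooled from several field-grown plants, and plant age was not given in the labels.

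The tapetum is the innermost cell layer of the anther wall; it surrounds the developing pollen, feeds it, secretes material for the pollen wall and then breaks down. A9 encodes a small secreted protein of the superfamily that holds lipid transfer proteins, protease inhibitors and seed 2S albumins. In Arabidopsis and in oilseed rape the gene is known for expression restricted to the tapetum, and its promoter is a common tool for driving transgenes in that layer. A bud contains many other tissues, so in these samples fewer tapetal cells and less A9 RNA per cell cannot be told apart.

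The signal is a MAS5 intensity on a linear scale, and the deposited arrays share a common trimmed mean. It compares samples for this probe set only, because the probes were designed for Arabidopsis and may bind several rapeseed copies of A9 with unequal strength. Where J10 and J03 differ in these copies the signal could differ without a change in expression, which was not tested. Changes were computed as log2(signal + 113.0) and are given with the standard error (SE) or the 95% interval of the limma fit to all 12 groups. A change was called when its p-value, adjusted by Benjamini-Hochberg over the 13999 probe sets tested, was under 0.05. Where a comparison is first described, the percentage of probe sets called in it is given as the background. All replicate means carry n = 2. The titles set biol_rep1 and biol_rep2 apart from tech_rep1 and tech_rep2. Nothing in the labels says that same-numbered replicates came from separate plants. Each p-value reflects the scatter between replicates within the groups of these samples alone, which may be technical.

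A9 was lower in small than in middle buds of all 4 kinds of plant. In fertile J10 plants the arrays of small buds read 945, 723, 582 and 657, and those of middle buds 6088, 6580, 7078 and 7004. In sterile J10 plants they read 620.5, 667, 557 and 809 in small buds and 3874, 4334, 5922 and 3493 in middle buds. The 2 sizes did not overlap in either case. In fertile J03 plants small buds gave 1666, 1687, 1939 and 1579, and middle buds 5842, 4336, 5294 and 4062. In sterile J03 plants small buds gave 825, 1044, 1169 and 1513, and middle buds 5031, 7435, 5723 and 5525. Here too every middle-bud array lay above every small-bud array.

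**Figure D1:**
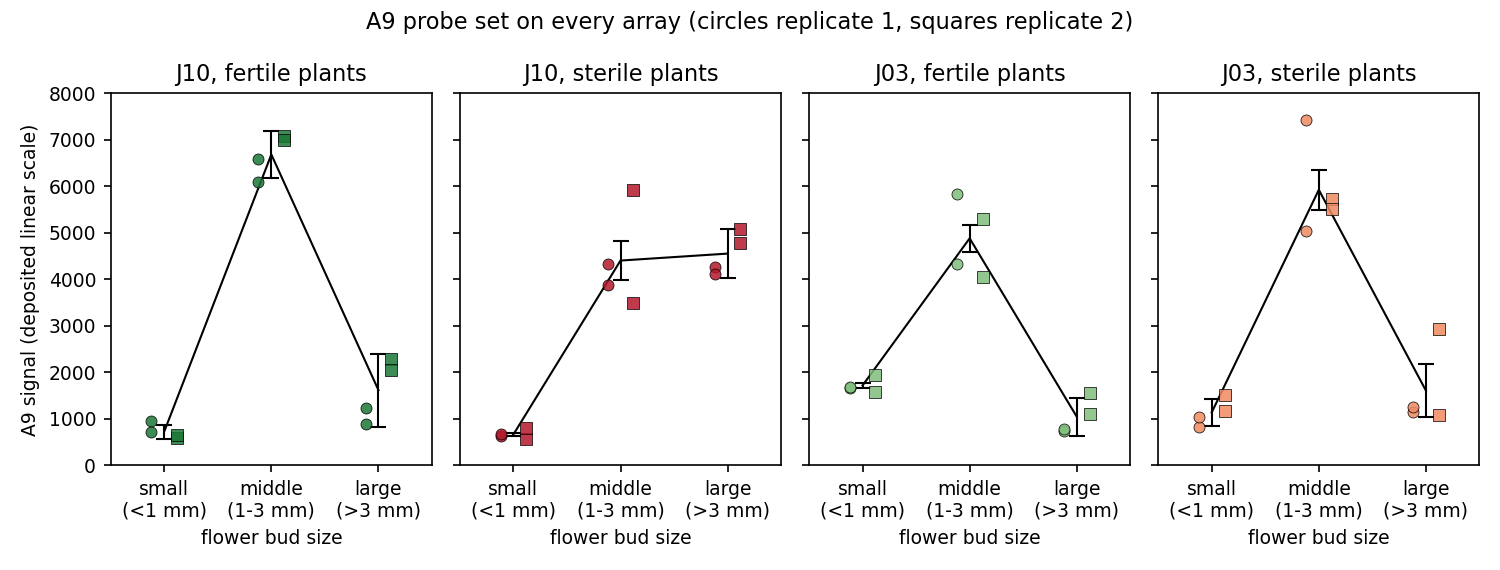
A9 signal on the linear scale (y axis) by bud size (x axis) for the 4 kinds of plant, with 1 point per array (circles replicate 1, squares replicate 2) and a black line through the group means with SD over 2 replicates. In large buds the sterile J10 arrays sit between 4108 and 5081, above the arrays of the other 3 kinds of plant at that size.

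The rise from small to middle buds was 9.20-fold in fertile J10 plants, from a mean of 727 ± 151 (SD) to 6688 ± 500 (log2 change 3.03, SE 0.26, limma adjusted p = 4.7e-08, 1.55% of probe sets called). It was 6.64-fold in sterile J10 plants, from 663 ± 27.6 to 4406 ± 427 (2.52, SE 0.26, limma adjusted p = 1.4e-05, 0.55% called), where no other probe set tested had a smaller p-value. In sterile J03 plants A9 rose 5.21-fold, from 1138 ± 288 to 5928 ± 431 (2.29, SE 0.26, limma adjusted p = 5.2e-06, 2.01% called). The smallest of the 4 rises was that of fertile J03 plants, 2.84-fold from 1718 ± 58.4 to 4884 ± 291 (1.44, SE 0.26, limma adjusted p = 0.0015, 3.04% called).

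That smaller rise began from a higher level in small buds. The 4 arrays of small fertile J03 buds lay above all 4 of small fertile J10 buds, with a mean 2.36 times as high, but the difference was not called (J10 minus J03, -1.14, 95% interval -1.68 to -0.60, limma adjusted p = 0.052, 0.393% called). It was called with a replicate block within each line (limma adjusted p = 0.014) and with all 48 arrays and a random block (limma adjusted p = 0.0044). Small sterile buds were also lower on every array in J10 than in J03, by a difference that was not called (-0.67, 95% interval -1.21 to -0.13, limma adjusted p = 0.256, 1.25% called). Whether fertile plants of the lines differed in the rise itself was tested with a contrast added after the values were seen. The rise was larger in J10 by 1.60 (95% interval 0.84 to 2.36), which missed the threshold over all probe sets (limma adjusted p = 0.339, 0% called; 0 probe sets were called by limma and A9 had an unadjusted p of 0.00023). Among sterile plants the rises differed by 0.24 (95% interval -0.52 to 1.00, limma adjusted p = 0.982, 0.1% called).

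From middle to large buds A9 fell in fertile plants of both lines and in sterile plants of J03. Large buds of fertile J10 plants read 1232, 895, 2291 and 2050.0, all below the middle buds, with a mean of 1617 ± 783 that was 4.14 times lower (-2.06, SE 0.26, limma adjusted p = 4.4e-05, 1.13% called). Large buds of fertile J03 plants read 735, 785, 1101 and 1560.0, with a mean of 1045 ± 404 that was 4.67 times lower than in middle buds (-2.15, SE 0.26, limma adjusted p = 6.3e-05, 0.814% called). All 4 also lay below the arrays of the same plants' small buds, a difference that was not tested. Large buds of sterile J03 plants read 1151, 1261, 2929 and 1088, with a mean of 1607 ± 567 that was 3.69 times lower (-1.91, SE 0.26, limma adjusted p = 0.00050, 0.471% called). The reading of 2929 came from 1 hybridisation of replicate 2 and stood apart from the other 3; its partner array gave 1088. Without that array the fall was -2.25 and stayed called (limma adjusted p = 3.4e-05).

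In sterile J10 plants no such fall was measured. Large buds read 4258, 4108, 5081 and 4776, within the range of the middle buds, and the means were 4556 ± 527 and 4406 ± 427. The change was 0.07 (95% interval -0.47 to 0.61, limma adjusted p = 0.992, 0.0714% called), an interval that does not include the falls of the other 3 kinds of plant. The direction of so small a change was not stable, and it was -0.04 with first hybridisations only. Large sterile J10 buds thus held 6.87 times the signal of small ones. The ratio was 2.23 in fertile J10, 1.41 in sterile J03 and 0.608 in fertile J03 plants. Large buds were not tested against small ones, and their arrays overlapped in fertile J10 and sterile J03 plants. Without the outlying array of 2929, mean log2 levels in sterile J03 plants were 10.30 in large and 10.26 in small buds.

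The ranks of A9 within each array, which do not depend on the scaling, were highest in middle buds and in large sterile J10 buds. In middle buds the percentile of A9 among the probe sets of an array ranged from 98.4 to 99.5. In large sterile J10 buds its percentile ranged from 98.7 to 99.2. In large fertile J10 buds the range was 83.7 to 96.1, in large sterile J03 buds 88.5 to 97.5 and in large fertile J03 buds 76.6 to 94.2. In small J10 buds it was 66.5 to 80.3 for sterile and 68.1 to 85.1 for fertile plants. In small J03 buds it was higher, 81.3 to 92.9 for sterile and 94.0 to 95.5 for fertile plants, which overlapped the ranges of large buds other than those of sterile J10.

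Ordered by mean log2 level, the 12 groups fell into an upper 5 and a lower 7. The upper 5 were, from the highest, middle buds of fertile J10 (12.73 ± 0.11), sterile J03 (12.55 ± 0.08) and fertile J03 (12.27 ± 0.08), then large buds (12.18 ± 0.16) and middle buds (12.11 ± 0.10) of sterile J10. Neighbours among these differed by 0.07 to 0.27, within the pooled SD of 0.30 between replicates. The next group, small buds of fertile J03 (10.83 ± 0.04), lay 1.28 below, and this was the 1 step in the order that was larger than that SD with replicate ranges that did not overlap. Below it came large buds of fertile J10 (10.67 ± 0.69) and sterile J03 (10.63 ± 0.38), small buds of sterile J03 (10.26 ± 0.33), large buds of fertile J03 (10.12 ± 0.50), and small buds of fertile J10 (9.70 ± 0.26) and sterile J10 (9.59 ± 0.04). Replicate ranges of neighbours overlapped throughout the lower 7 groups.

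Sterile and fertile plants of the same line differed in A9 by a called amount in large J10 buds. All 4 sterile arrays there, 4108 to 5081, lay above all 4 fertile ones, 895 to 2291, and the sterile mean was 2.82 times as high (1.51, SE 0.26, limma adjusted p = 0.0012, 2.44% called). Of the 13999 probe sets, 32 had a change at least this far towards sterile buds, A9 included. In middle J10 buds the order was the other way round, with every sterile array (3493 to 5922) below every fertile one (6088 to 7078), but the change of -0.62 was not called (95% interval -1.15 to -0.08, limma adjusted p = 0.443, 0.571% called). In small J10 buds the groups overlapped (-0.11, 95% interval -0.64 to 0.43, limma adjusted p = 0.972, 0.107% called). The sterile-fertile change in large J10 buds exceeded that in middle buds by 2.13 (SE 0.37, limma adjusted p = 0.0065, 0.25% called). This difference of differences ranked 13th of all tested probe sets by p-value. It was called in 14 of 18 other settings and lost with the 4 compared groups fitted alone (limma adjusted p = 0.060), with first hybridisations only (0.139), without fertile large replicate 1 (0.076) and without sterile large replicate 2 (0.051).

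The call in large J10 buds rested on a fertile group with unequal replicates, 1063 for replicate 1 and 2170 for replicate 2. Without fertile replicate 1 the change was 1.03 and lost its call (limma adjusted p = 0.075), and without fertile replicate 2 it was 2.00. The ratio of 3' to 5' signal of the actin, GAPDH and ubiquitin control transcripts, a stand-in for RNA integrity, differed between these groups. Its mean log2 value was 1.94 in sterile and 1.19 in fertile large J10 buds. Within the fertile group it was 0.905 in replicate 1 and 1.48 in replicate 2, the replicate with more A9. In middle fertile J10 buds replicate 2 also had the higher ratio (1.49 against 0.883) and more A9 (7041 against 6334). In small ones it had the higher ratio (1.48 against 0.992) but less A9 (619.5 against 834). Among the remaining groups, the replicate with the higher ratio had less A9 in middle and large sterile J10 buds. The same held in small and large J03 buds, sterile and fertile. It had more A9 in small sterile J10 buds and in middle J03 buds, sterile and fertile. A relation of A9 to the ratio between replicates was not tested. Sterile J10 buds also had higher mean ratios than fertile ones at small (1.67 against 1.24) and middle size (1.65 against 1.19). At those sizes A9 was not called different. With this ratio as a covariate the A9 change in large J10 buds stayed called (limma adjusted p = 0.044). The ratio and fertility went together there, with arrays at 1.84 to 2.03 in sterile and 0.843 to 1.57 in fertile plants. Their parts in the A9 change therefore cannot be told apart.

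In J03 plants the sterile and fertile buds did not differ in A9 by a called amount at any size. In large buds the arrays overlapped and the sterile mean was 1.54 times the fertile one (0.51, 95% interval -0.03 to 1.05, limma adjusted p = 0.595, 0.964% called). Without the outlying array of 2929 the change was 0.17, and with single replicates left out it ran from 0.16 (without fertile replicate 1) to 0.86 (without fertile replicate 2). In middle buds they overlapped too (0.27, 95% interval -0.26 to 0.81, limma adjusted p = 0.977, 0.0286% called). In small buds every sterile array (825 to 1513) lay below every fertile one (1579 to 1939), with a change of -0.57 that was not called (95% interval -1.11 to -0.04, limma adjusted p = 0.686, 0.00714% called). The change in large minus middle J03 buds was 0.24 (95% interval -0.52 to 1.00, limma adjusted p = 1.0, 0.107% called).

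**Figure D2:**
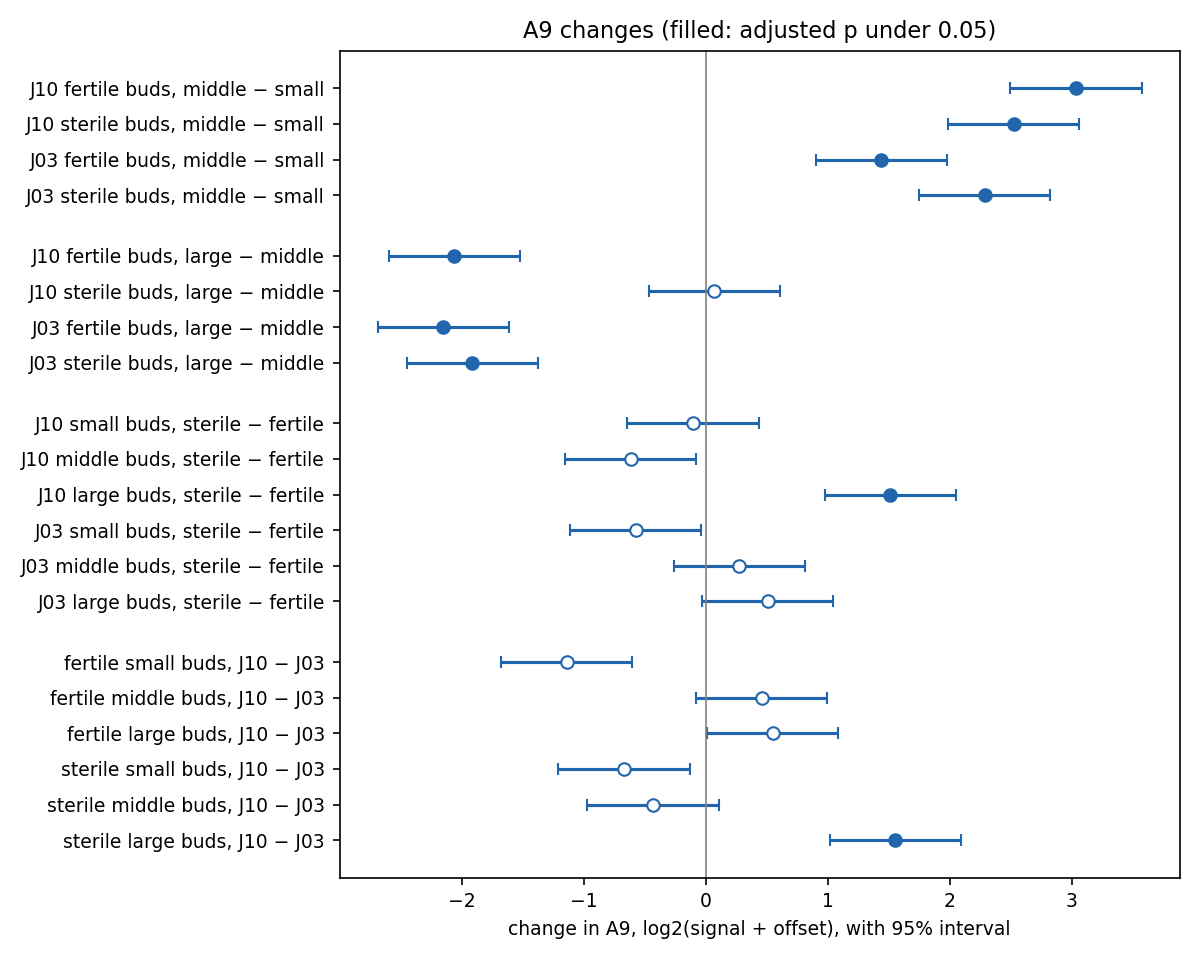
Changes of A9 on the log2(signal + offset) scale (x axis) with 95% intervals for successive bud sizes, sterile minus fertile and J10 minus J03 (y axis), 2 replicates per group; filled points have an adjusted p under 0.05. The large minus middle change of sterile J10 buds lies at 0.07, while the other 3 lie between -2.15 and -1.91.

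Set directly against each other, large sterile buds held 2.83 times as much A9 signal in J10 as in J03 (4556 ± 527 against 1607 ± 567, change 1.55, SE 0.26, limma adjusted p = 0.0010, 2.65% called). No array of the 2 groups overlapped. This call held in all 15 other settings tried. The 3' to 5' ratio was higher in J10 here as well, at 1.94 against 1.16, and with it as a covariate the change was 1.54 (limma adjusted p = 0.048). Its array values did not overlap either, at 1.84 to 2.03 in J10 and 0.949 to 1.38 in J03. The ratio and the line therefore cannot be told apart in this comparison. Middle sterile buds differed by -0.43 (95% interval -0.97 to 0.11, limma adjusted p = 0.5002, 2.39% called). Fertile middle buds, whose arrays did not overlap, and fertile large buds, whose arrays did, differed between the lines by 0.46 and 0.55, neither of them called (limma adjusted p = 0.574 and 0.492, 0.564% called in each).

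Whether sterile plants of the lines differed in the step from middle to large buds was tested with another contrast added after the values were seen. The step was 1.98 higher in J10 (95% interval 1.22 to 2.74, limma adjusted p = 0.075, 0.0143% called). It was thus not called as fitted, although it passed in 4 of 19 other settings, among them that without the outlying array of large sterile J03 buds (2.32, limma adjusted p = 0.0082) and that with a replicate block within each line (1.98, limma adjusted p = 0.013). Fertile plants differed in this step by 0.09 (95% interval -0.67 to 0.85, limma adjusted p = 0.999; 0 probe sets, 0%, were called by limma and the unadjusted p was 0.809). The sterile-fertile change in large buds was larger in J10 than in J03 by 1.00 (95% interval 0.24 to 1.76), again not called (limma adjusted p = 0.499, 0.0286% called). The corresponding values were -0.89 in middle buds (limma adjusted p = 0.650, 0.0286% called) and 0.47 in small buds (limma adjusted p = 0.959; 0 probe sets, 0%, were called by limma and the unadjusted p was 0.215).

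Other tapetal genes did not all follow A9. Of 23 tapetum regulators listed, 7 were named in the annotation and 5 tested. AMS, a bHLH transcription factor needed for tapetum development and pollen wall formation, correlated with A9 at r = 0.75 over the 12 group means, which share arrays with those of A9. It rose from small to middle buds in fertile J10 (1.13, limma adjusted p = 0.025) and sterile J03 plants (1.29, limma adjusted p = 0.0080). In large J10 buds it read 1099 ± 137 in sterile and 1660 ± 13.7 in fertile plants, an uncalled change of -0.55 (limma adjusted p = 0.363) opposite in sign to that of A9. EMS1, the receptor kinase that specifies tapetal cells in Arabidopsis, and bHLH091, a partner of the tapetal bHLH factors, had r of 0.36 and 0.65. ROXY1 and ROXY2, the remaining regulators tested, had r of 0.11 and -0.25. None of the 5 regulators was called in sterile against fertile large buds of either line, where 2.44% (J10) and 0.964% (J03) of all probe sets were called. Their median change in J10 was -0.57 (all probe sets 0.02).

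Of 28 tapetum and pollen wall enzymes listed, 3 were named and tested. SHT, the tapetal spermidine hydroxycinnamoyl transferase, was lower in sterile than in fertile J10 buds at middle size (-2.98, limma adjusted p = 9.0e-05) and at large size. Its signal in large buds was 1834 ± 1213 in sterile and 9173 ± 548 in fertile plants (-2.40, SE 0.36, limma adjusted p = 0.00022). UPEX1, a galactosyltransferase of pollen wall formation, and ATA27, a tapetal beta-glucosidase family member, had r of 0.77 and 0.76 with A9. SHT had r of 0.50. In large J10 buds UPEX1 read 1471 ± 35.4 in sterile and 2029 ± 777 in fertile plants. ATA27 read 710 ± 167 and 409 ± 274 there, in the direction of A9, and 726 ± 62.5 and 331 ± 31.7 in large J03 buds. Neither gene was called in large J10 buds, nor was ATA27 in large J03 buds. From small to middle buds all 3 enzymes were called higher in fertile J10 (1.55% of probe sets called) and in sterile J03 plants (2.01%). In fertile J03 plants 2 were (3.04%). In sterile J10 plants none was called (0.55%), with changes of 1.33 for SHT, 0.92 for UPEX1 and 1.86 for ATA27 (limma adjusted p = 0.115, 0.099 and 0.053). From middle to large buds none of the 3 was called in sterile J10 (0.0714%), fertile J10 (1.13%) or fertile J03 plants (0.814%). In sterile J03 plants UPEX1 fell in that step (-1.38, limma adjusted p = 0.0051), and in large J03 buds it was lower in sterile than in fertile plants (-1.10, limma adjusted p = 0.019).

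Relatives of A9 in the lipid transfer superfamily were represented by 2 of 9 listed genes. AT5G52160 fell from middle to large buds in fertile J10 plants (-3.82, limma adjusted p = 0.00020), fertile J03 plants (-2.50, limma adjusted p = 0.025) and sterile J03 plants (-3.84, limma adjusted p = 0.00093). In sterile J10 plants it went from 4997 ± 484 to 920 ± 607, a change of -2.67 that was not called (limma adjusted p = 0.079), where A9 had 0.07. In large J10 buds its sterile minus fertile change was 1.82, also not called (limma adjusted p = 0.091). From small to middle buds its mean rose by a called amount in sterile J10 plants (876 to 4997). It also rose in fertile J10 (1385 to 3107) and sterile J03 plants (1863 to 5951), but was not called. In fertile J03 plants, where A9 rose, its mean went from 2900 in small to 1399 in middle buds, also not called. AT5G62080 had r of 0.75 with A9 and no called change among the comparisons of sizes and of sterile with fertile buds examined for it.

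Markers of other bud tissues gave the following levels beside the A9 difference in large J10 buds. Of 17 genes of maturing pollen listed, 4 were tested (ACT11, ACT12, TUA1 and TET11), and their summed signal was 1766 to 1858 in sterile and 3412 to 3856 in fertile replicates. TET11, a pollen tetraspanin named after its values were seen, was the 1 of 4 that was called there (-1.48, limma adjusted p = 0.0043, 2.44% called). In large J03 buds, where A9 was not called different, the summed pollen signal was 1605 to 1761 in sterile and 3442 to 3531 in fertile replicates. ACT12 and TET11 were called lower in sterile plants of J03 (0.964% of probe sets called). Of 14 pistil and ovule genes 2 were tested, INO and SPT. Their sums in large J10 buds were 1349 to 1360 in sterile and 938 to 1175 in fertile replicates, and neither was called. None of these markers was at 0, and their part in the A9 difference was not tested. The 11 listed endothecium and dehiscence genes and 8 floral identity genes were not named in the annotation, and the 1 of 13 meiocyte genes tested was not called. Of 13 pollen coat genes, 3 were tested (EXL2, EXL3 and EXL5, extracellular lipases of the pollen coat family) and none was called in the size or sterile-fertile comparisons.

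The 8 named genes whose pattern was most like that of A9, by Pearson correlation over the 12 group means, had r of 0.89 to 0.95, against a median of -0.03 over the other 13998 probe sets tested. The points share arrays, and 18 probe sets in all, named or not, exceeded 0.9. In order they were AT1G76470 (0.95) and AT4G30470 (0.95), both of the NAD(P)-binding Rossmann-fold superfamily, and AT3G23770 (0.95), of a beta-1,3-glucanase family. Then came AT3G53100 (0.94), a GDSL-type lipase family member, TBL39 (0.92), of the family that acetylates wall polysaccharides, AT1G12570 (0.92), a glucose-methanol-choline oxidoreductase family member, AT1G25510 (0.91), an aspartyl protease family member, and BSMT1 (0.89), a carboxyl methyltransferase. Over the 24 replicate values their r was 0.76 to 0.93. The first 7 were also the 7 most alike by that measure, while BSMT1 ranked 17th among named genes.

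**Figure D3:**
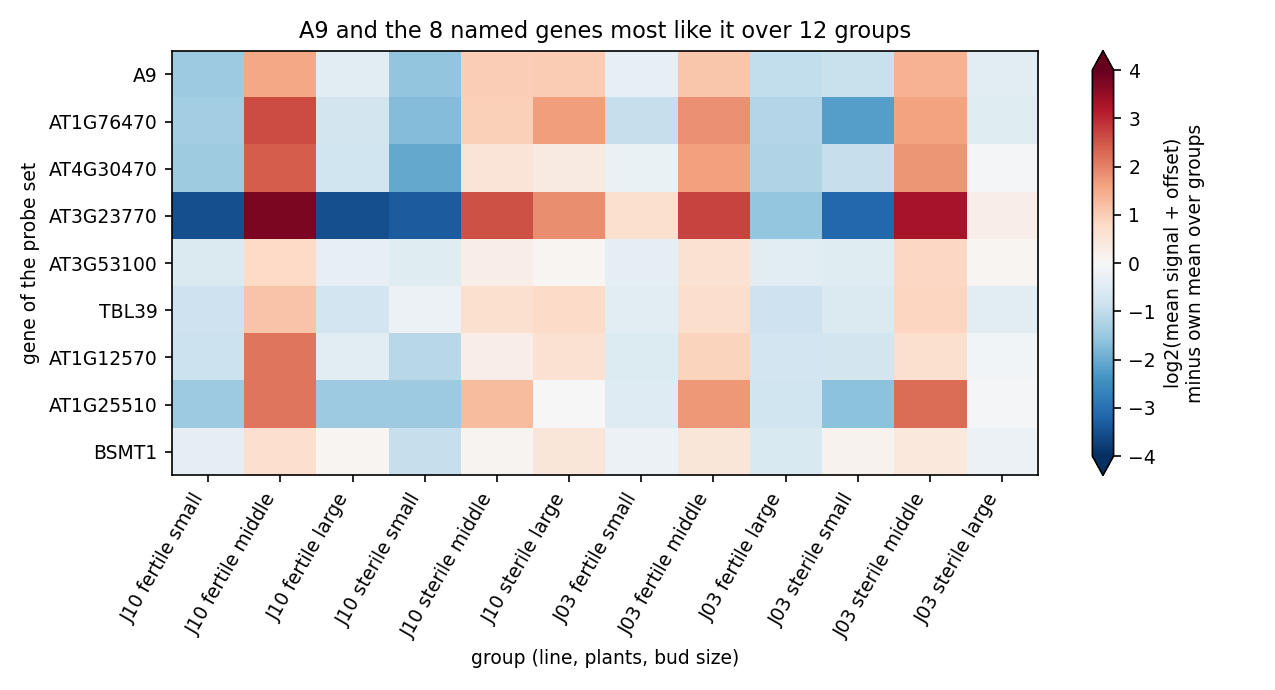
Level of A9 and of the 8 named genes most like it (rows) in the 12 groups (columns), as log2(mean signal + offset) minus each gene's own mean over groups (colour, red higher, blue lower). The r values over group means run from 0.89 to 0.95, and the middle-bud columns of fertile plants and of sterile J03 plants are the reddest for most rows.

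In the 8 genes most like A9 the step from middle to large buds of sterile J10 plants had a median of -0.01, and 0 were called there (limma, 10 probe sets called in all). The medians were -2.94 in fertile J10, -2.15 in fertile J03 and -1.62 in sterile J03 plants. In these, 6, 6 and 4 of the 8 were called lower, while 1.13%, 0.814% and 0.471% of all probe sets were called in either direction. Since these genes were chosen for likeness over the same groups, their values are a description. In large buds AT3G23770 read 16541 ± 3811 in sterile and 287.5 ± 38.7 in fertile J10 plants (5.44, limma adjusted p = 0.00013). TBL39 read 1857 and 567 there (1.52, limma adjusted p = 0.0043), and AT1G12570 read 2357 and 1082 (1.04, limma adjusted p = 0.025). The other 5 were not called (2.44% of all probe sets called).

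A set chosen from fertile buds alone was made of the 11 probe sets called both higher in middle than in small and lower in large than in middle fertile buds, in J10 and in J03. It held A9 and 5 other named genes (AT4G30470, AT1G25510, AT1G12570, AT1G76470 and TBL39), so that 5 of the 8 most alike genes recur in it. From middle to large sterile J03 buds all 11 changes were below 0 and 8 were called, with a median of -1.87 and a range of -3.02 to -0.77. In sterile J10 buds 6 of the 11 changes were below 0 and 1 was called, with a median of -0.23 and a range of -2.19 to 0.71. A9 at 0.07 had 4 of the set above it and 6 below. The difference between the lines in this step was positive for all 11, from 0.23 to 3.24 with a median of 1.55. None of the 11 was called for it, and A9 at 1.98 was exceeded by 1 of them. Over all probe sets tested the median of this difference was 0.02. The median over all probe sets was -0.01 for the sterile J03 step (0.471% called) and 0.01 for the sterile J10 step (0.0714% called). The 11 include A9 and were read from the same arrays, so they do not count as independent tests.

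**Figure D4:**
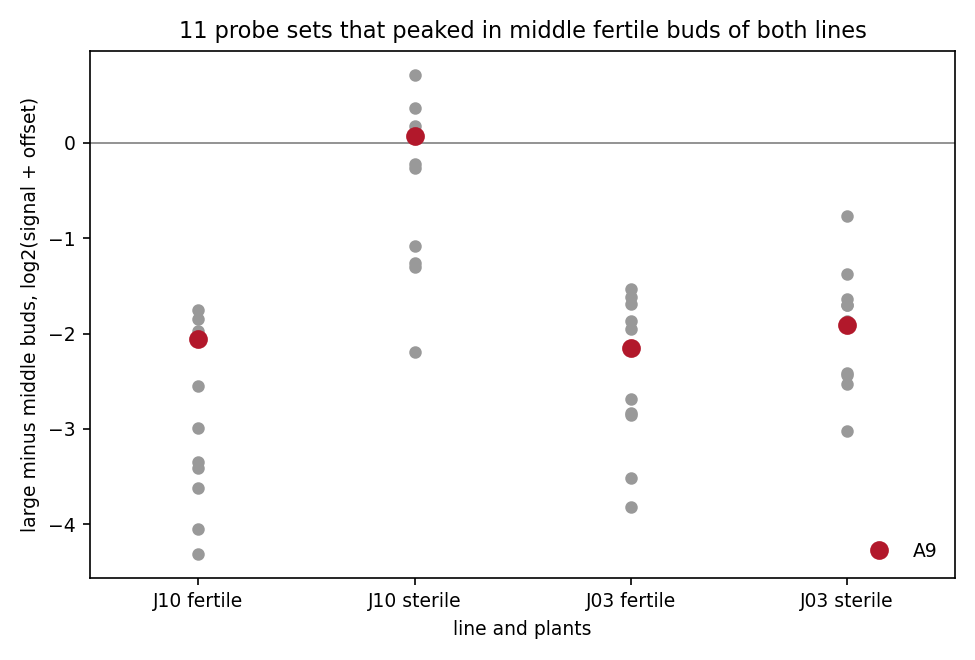
Change from middle to large buds on the log2(signal + offset) scale (y axis) in the 4 kinds of plant (x axis) for the 11 probe sets that peaked in middle fertile buds of both lines, 1 point each, with A9 in red. The fertile values are low by the way the set was chosen; in sterile J10 buds the points spread from -2.19 to 0.71, and in sterile J03 buds from -3.02 to -0.77.

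The scatter of A9 was measured at 2 levels. The pooled SD of log2 signal was 0.29 between the 2 hybridisations of a replicate and 0.30 between replicate means of a group. These SDs were 0.22 and 0.31 in J10, and 0.35 and 0.29 in J03. Each replicate mean averages 2 hybridisations, so the SD between means includes part of the scatter between hybridisations. The 2 SDs therefore do not each measure a separate source of scatter, and the part of each source was not estimated. Over all probe sets 19 of 24 J10 arrays, but 9 of 24 J03 arrays, correlated better with the array read as their partner than with the other replicate, so the reading of the titles is uncertain for J03. Array medians ran from 339 to 412, arrays correlated with the rest of their group at a mean r of 0.67 to 0.84, and no pair of arrays was identical.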

How the data were processed

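RNA of flower buds was measured on 48 one-colour arrays. Each probe set has 1 deposited intensity, a linear MAS5 signal according to the submitters' processing notes, which name no version. Each array had a 2% trimmed mean of 500.0. The given annotation named 13513 probe sets with 1 gene, 503 with several and 8730 not at all. Signals were changed to log2 with 113.0 added, a value set at the middle of the 48 arrays' own 25th percentiles. Probe sets were tested if both replicates of some group reached the array median (50th percentile) on average, which left out 64 controls and kept 13999. The hybridisations titled biol_rep and tech_rep with 1 number were averaged to 24 values. One model of limma 3.58.1 (R 4.3.3, intensity trend, 12 residual degrees of freedom) gave 25 comparisons, and 4 more were added after the values were seen. The fit was tested on simulated data. Alternatives were the offset, filter, hybridisations, normalization, groups fitted, covariate, trend, block and each replicate left out. The number of arrays limits the precision. Named genes were A9, the 8 named genes most like it and list members, mostly those with the largest signals. The gene, the 9 lists with 136 entries and the rules were chosen with earlier results of these data known; 25 entries were matched and 20 tested. Same-numbered replicates deviated together with r over 0.1 in 14 of 15 pairs of J10 groups (0.09 to 0.29) and 0 of 15 of J03 groups (-0.04 to 0.08). Since not every pair passed, and the labels name nothing shared, the numbers were not taken as pairs; the block stands as an alternative. Plots used matplotlib 3.10.9 (Python 3.11.15). Probe and promoter sequences were not used here.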

Additional observations from a re-analysis of the deposited data

Results flagged for a closer look

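In large buds of sterile J03 plants 1 array of replicate 2 gave an A9 signal of 2929, set apart from the other 3 (1088 to 1261); its gap to the next was 0.906 of the group's range, above Dixon's critical value of 0.829. Of the 12 groups tested this way 1 was set apart, and chance does so in about 1 in 20.

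The sterile-fertile change of A9 in J10 differed between large and middle buds by 2.13 (limma adjusted p = 0.0065), a difference tested as an interaction. It was called in 14 of 18 other settings, with adjusted p up to 0.139.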

How the results depend on the processing

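The 10 called and 19 uncalled A9 changes were recomputed in other settings, and 421 of the 448 resulting values kept direction and side of the threshold. Many of these values came from the same fit and are not separate checks. J10's large minus middle sterile-fertile difference lost its call with the compared groups only (2.13, adjusted p = 0.060) and first hybridisations only (1.85, adjusted p = 0.139). Leaving out replicates moved it from 1.64 to 2.61 (lost without J10 fertile large replicate 1 or sterile large replicate 2, adjusted p = 0.076 and 0.051). Its counterpart in large J10 buds ran from 1.03 to 2.00 and was lost without fertile replicate 1. With the replicate block within each line, J10 minus J03 in fertile small buds (-1.14, adjusted p = 0.014) and the line difference of the sterile large minus middle step (1.98, adjusted p = 0.013) became called; other calls stood. All 48 arrays with a random block also called both (-1.14 and 1.98) and the fertile middle minus small difference between lines (1.60), which the compared groups only called too (1.60). The sterile step was also called without the outlying J03 array (2.32) and ran from 1.72 to 2.25 with replicates left out. Uncalled changes that turned sign were, with first hybridisations only, J03 middle buds (-0.051) and the sterile J10 large minus middle step (-0.042). With second hybridisations only, added after seeing the data, they were J10 small buds (0.081), the J03 size difference (-0.53), the sterile middle minus small line difference (-0.011) and the fertile large minus middle one (-0.41). Without the outlying array the J03 size difference was -0.10. With replicates left out these ran from -0.045 to 0.19 (sterile J10 step), -0.29 to 0.076 (J10 small), -0.39 to 0.57 (fertile step between lines) and -0.12 to 0.59 (J03 size difference). The cause was not tested. Counts of calls over all probe sets moved by over 1.5 times in some setting for each of the 29 comparisons: large J10 buds held 79 to 575 (341 as fitted), large sterile buds between lines 64 to 628 (371), the sterile J10 step 0 to 21 (10) and the J10 size difference 6 to 84 (35). First hybridisations only put large J03 sterile buds sixth in the order of levels (10.94 in place of 10.63).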
